A study of Mus musculus with 16 samples.

Results

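Neutrophils are made in the bone marrow in steps that are directed by a small set of transcription factors, and 10 of these were described here: Cebpa, Cebpb, Cebpd, Cebpe, Gfi1, Spi1, Runx1, Irf8, Klf5 and Myb. They were taken by name from 49585 gene identifiers, all 10 were present, and all 10 passed the filter on low counts in every comparison. RNA was sequenced from mouse neutrophils described as sorted by flow cytometry, from the bones of C57BL/6 animals aged 8 to 12 weeks, in 16 libraries. P2KO were Vav:cre-PHD2f/f animals, in which a recombinase driven by the Vav promoter, active in blood-forming cells, is meant to delete the oxygen sensor PHD2 (gene Egln1). P2H2KO were Vav:cre-PHD2/HIF2ff/ff animals, meant to lack PHD2 together with HIF2α (gene Epas1), and P2WT and P2H2WT were the wild-type controls of the P2 line and the P2H2 line. Each group held 4 libraries, and the labels do not say whether the controls carried floxed alleles or Cre. PHD2 marks the HIFα proteins for degradation when oxygen is present, and the design asked what its loss does to neutrophils with and without HIF2α.

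Total counts were 23450746 to 28601284 per library, and levels are given as CPM, the reads of a gene per 1000000 reads of the library after TMM scaling. The factors had between 438 and 11605 reads per library. Egln1 was at 43.2 to 58.4 CPM in the P2KO libraries and 45.9 to 51.3 CPM in the P2WT libraries, and at 49.2 to 58.8 CPM in P2H2KO and 47.9 to 54.6 CPM in P2H2WT. Epas1 was at 3.42 to 8.39 CPM in the P2H2KO libraries (median 5.40) and 2.55 to 4.97 CPM in the P2H2WT libraries (median 3.35), so it was not lower in the group labelled as lacking it, and it was at 6.76 to 24.4 CPM in P2KO and 8.70 to 11.3 CPM in P2WT. These ranges overlap within each line. Counts summed over a whole gene do not show the loss of an exon, so they do not check the deletions, and the group names stand for the labels throughout. Neutrophil transcripts were abundant, with the calprotectin subunit gene S100a9 at 13162 CPM and the antimicrobial granule gene Ngp at 11794 CPM on average. Markers of other blood cells were present too, and the haemoglobin gene Hbb-bs, at 12962 CPM on average, lay between these. The 10 erythroid genes counted summed to 21642 to 43485 CPM. The 16 monocyte and macrophage genes summed to 3202 to 7306 CPM and the 14 B cell genes to 279 to 935 CPM. The cell-cycle genes Mki67 and Top2a averaged 1558 and 1186 CPM. In such mixed RNA, fewer cells of a type and less RNA per cell cannot be told apart.

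The factors act at different stages. Myb and Runx1 maintain and specify blood progenitors. Spi1 encodes PU.1, the factor needed for all myeloid cells, C/EBPα (Cebpa) opens the granulocyte and monocyte path, and Irf8 and Gfi1 then favour monocytes and neutrophils, respectively. C/EBPε (Cebpe) drives the secondary granule genes of late precursors, C/EBPβ (Cebpb) serves emergency granulopoiesis, and C/EBPδ (Cebpd) and Klf5 have also been linked to granulocyte maturation.

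RefSeq promoter windows (GRCm38.p6) were at hand for 6 of the 10 genes. They are shown for Cebpa, Irf8 and Cebpb because these 3 had positive correlations with each other in both lines, and because Cebpa was the factor with separated groups in the P2 line. Each line gives the 250 bases before the start site on the gene's strand, which is plus for all 3. Capitals mark every match, on either strand, to ACGTG (the core bound by HIF), TTGCG (a C/EBP core) or GAGGAA (the PU.1 core).
Cebpa, chr7:35119043-35119292: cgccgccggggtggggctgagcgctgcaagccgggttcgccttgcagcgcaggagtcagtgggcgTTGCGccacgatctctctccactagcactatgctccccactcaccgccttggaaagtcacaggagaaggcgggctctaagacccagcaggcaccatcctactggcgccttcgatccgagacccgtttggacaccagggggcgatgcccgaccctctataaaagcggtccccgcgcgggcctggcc
Irf8, chr8:120736108-120736357: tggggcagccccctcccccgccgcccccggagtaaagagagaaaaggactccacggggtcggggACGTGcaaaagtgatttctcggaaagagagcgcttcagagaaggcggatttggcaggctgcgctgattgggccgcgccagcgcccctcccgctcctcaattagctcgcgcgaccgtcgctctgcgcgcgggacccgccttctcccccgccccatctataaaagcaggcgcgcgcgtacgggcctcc
Cebpb, chr2:167688665-167688914: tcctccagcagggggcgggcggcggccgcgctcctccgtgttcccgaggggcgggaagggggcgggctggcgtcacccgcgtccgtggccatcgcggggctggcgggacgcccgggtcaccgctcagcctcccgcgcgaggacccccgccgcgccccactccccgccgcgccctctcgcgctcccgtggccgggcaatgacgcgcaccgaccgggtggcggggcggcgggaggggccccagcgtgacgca
The Cebpa window held 1 TTGCG match, the Irf8 window 1 ACGTG match, and the Cebpb window no match to these letters. Of 32817 promoter windows of the same length, 16.6% held ACGTG, 14.5% TTGCG and 23.3% GAGGAA, so single matches are common. A match describes letters only and shows no binding.

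Levels of the factors relative to each other were compared per length of exon, since longer transcripts collect more reads. The length was that of all annotated exons of a gene together, not of the transcripts present, so the order depends on it. Irf8, for example, averaged 298 CPM over 7055 bases and Cebpb 89.3 CPM over 1504 bases. Cebpe, the late granule factor, was the most abundant at 134 ± 25.7 CPM per kilobase (SD, n = 16 libraries), followed by Spi1 at 118 ± 22.7. Cebpb was next at 59.3 ± 16.5 CPM per kilobase, then Irf8 at 42.3 ± 7.77, Cebpa at 40.1 ± 9.71 and Cebpd at 28.5 ± 7.45. The progenitor factor Myb stood at 16.3 ± 2.49, Gfi1 at 9.21 ± 1.03, Runx1 at 7.50 ± 0.576 and Klf5 at 4.26 ± 0.819 CPM per kilobase. The order was not fixed at each step: Cebpe exceeded Spi1 in 13 of 16 libraries, Irf8 exceeded Cebpa in 10, Cebpa exceeded Cebpd in 14, Cebpd exceeded Myb in 15 and Gfi1 exceeded Runx1 in 13. The other neighbours, namely Spi1 over Cebpb, Cebpb over Irf8, Myb over Gfi1 and Runx1 over Klf5, kept their order in all 16. Exons of Cebpb overlap those of Tmem189 on the opposite strand over 20.7% of their bases, and those of Cebpd overlap Spidr over 15%. Whether strand was used in counting is not given, so reads of these pairs may be mixed, and the levels of Cebpb and Cebpd per kilobase are uncertain to that extent.

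**Figure D1:**
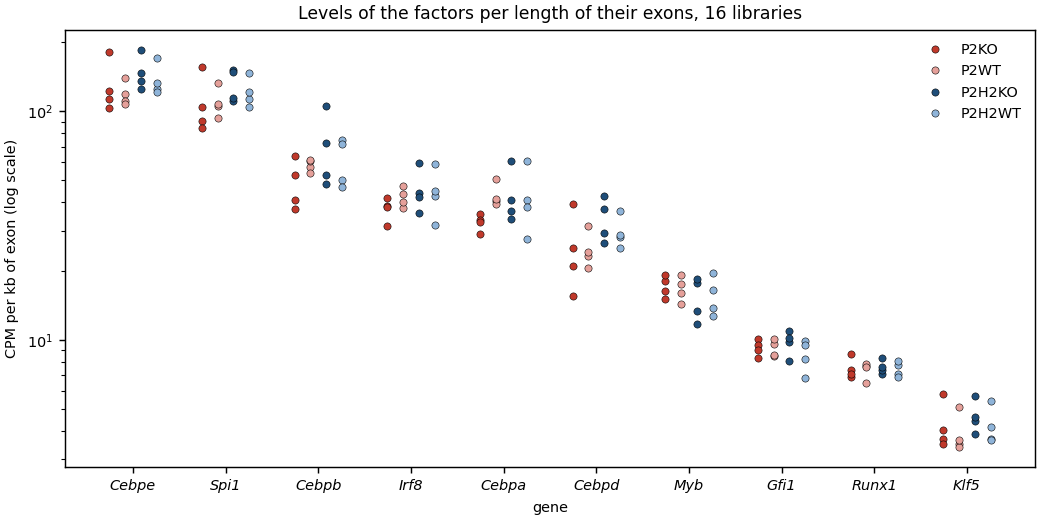
CPM per kilobase of exon (log axis) for the 10 factors, ordered by mean, 1 point per library and 1 colour per group. Cebpe and Spi1 lie above 84 in all 16 libraries, and Klf5 lies lowest, at 3.41 to 5.81.

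The first question was whether loss of PHD2 alone changed the factors. In P2KO against P2WT, 0 of 10 passed an adjusted p of 0.05 (edgeR's quasi-likelihood test with Benjamini-Hochberg adjustment), against 0.0437% of the 13734 genes tested, and 1 of 10 had an unadjusted p under 0.05, against 3.49% of all genes. DESeq2 also called 0. The changes ran from -0.38 to 0.14 on the log2 scale, with a median of 0.022 beside 0.020 for all genes tested. The factor with the unadjusted p under 0.05 was Cebpa. Its level was 94.1, 87.8, 86.4 and 76.3 CPM in the P2KO libraries. The P2WT libraries had 107, 104, 109 and 133 CPM. All 4 P2KO libraries lay below all 4 P2WT libraries, which was true of 1.39% of all genes (2.25% counting both directions). The means were 86.2 ± 7.37 CPM and 113 ± 13.2 CPM (SD, n = 4), a log2 fold change of -0.38 (SE 0.095, 95% interval -0.60 to -0.17). The unadjusted p of edgeR's quasi-likelihood test was 0.00293 and the adjusted p 1, so Cebpa did not pass over all genes. DESeq2 gave -0.39 with an adjusted p of 0.159, and leaving out any 1 of the 8 libraries gave -0.43 to -0.30. In the fit of all 16 libraries, where the spread of the P2H2 line enters, the unadjusted edgeR p was 0.0757.

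Marker levels of other cells are given beside this value of Cebpa. The monocyte and macrophage score, the mean log2 CPM of 16 genes, was 7.02 to 7.18 in P2KO and 7.30 to 7.51 in P2WT, also without overlap. All 16 genes had a change below 0, while 57.8% of all genes tested were above 0. Of the 16, 6 had an unadjusted edgeR p under 0.05, beside 3.49% of all genes, and 0 an adjusted one. The 16 genes summed to 3202 to 4351 CPM in P2KO and 4362 to 5700 CPM in P2WT. They were led by Fn1, F13a1 and Ccr2, and none of the 16 was at 0. With this score as a covariate, chosen after seeing the data, the change of Cebpa was 0.040 (unadjusted edgeR p 0.827). With the mature neutrophil score in its place it was -0.38 (unadjusted edgeR p 0.00211). Since the monocyte score and the genotype separate the same libraries, they cannot be told apart here. Of the 11 T and NK cell genes, 10 had values below 0, 4 of them with an unadjusted edgeR p under 0.05, beside 3.49% of all genes, and 0 called. Klrb1c, a receptor of NK cells, had a log2 fold change of -0.75 (adjusted edgeR p 0.0688), with means of 3.29 CPM in P2KO and 5.60 CPM in P2WT. Gzma, a granzyme, was at -0.78 and the cytokine receptor gene Il2rb at -0.57 (adjusted edgeR p 0.210 and 0.296). For these 3 genes all P2KO libraries lay below all P2WT libraries, which was true of 1.39% of all genes. The 3 were picked for the smallest unadjusted edgeR p of the list, so their separation partly comes with the pick. The 11 genes summed to 90.4 to 124 CPM in P2KO and 124 to 138 CPM in P2WT, and their part in the Cebpa value was not tested.

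The other 9 factors overlapped between P2KO and P2WT. Cebpb, the emergency factor, measured 61.7, 79.4, 95.4 and 56.1 CPM in the P2KO libraries, against 85.8, 90.9, 80.7 and 92.3 CPM in the P2WT libraries. The P2WT libraries were close together and lay within the wider P2KO range (log2 fold change -0.24, 95% interval -0.60 to 0.11, unadjusted edgeR p 0.152). Without P2KO replicate 6 the change of Cebpb was -0.40 (unadjusted edgeR p 0.00572, adjusted 0.406), and without P2KO replicate 9 it was -0.14. Irf8, which favours monocytes, measured 272, 294, 269 and 223 CPM in the P2KO libraries, against 265, 308, 282 and 331 CPM in the P2WT libraries. P2KO replicate 9 was the lowest and P2WT replicate 7 the highest (log2 fold change -0.15, 95% interval -0.39 to 0.076).

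For Cebpe, Spi1, Cebpd and Klf5 the widest spread was within P2KO. Cebpe measured 152, 128, 226 and 139.9 CPM in the P2KO libraries, against 173, 147, 137 and 134 CPM in the P2WT libraries. P2KO replicate 6 stood above all others, and without it the log2 change of Cebpe turned from 0.14 to -0.066. Spi1 measured 280.4, 244, 419 and 227 CPM in the P2KO libraries, against 357, 283, 252 and 291 CPM in the P2WT libraries. Its means were nearly equal, but the 95% interval of the log2 change, -0.45 to 0.45, leaves room for changes of -26.9% to 36.2%. Cebpd measured 94.4, 79.0, 148 and 58.2 CPM in the P2KO libraries, against 118, 87.4, 77.5 and 90.8 CPM in the P2WT libraries. P2KO thus held both the highest and the lowest Cebpd library of the line. Klf5 measured 21.0, 19.1, 30.2 and 18.2 CPM in the P2KO libraries, against 26.4, 18.2, 17.7 and 18.9 CPM in the P2WT libraries. P2KO replicate 6 was the highest library of the P2 line for 6 of the 10 factors, and P2KO replicate 9 the lowest for 5. Replicate 6 also had the line's highest sum of mature neutrophil genes (37647.5 CPM) and its lowest erythroid sum (21898 CPM). Replicate 9 had the lowest mature neutrophil sum (15319.5 CPM) and the highest B cell sum (935 CPM). The part of cell content in these ranks was not tested.

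Gfi1, Runx1 and Myb were close between the groups. Gfi1, a repressor that holds the neutrophil fate, measured 32.1, 30.2, 26.7 and 28.8 CPM in the P2KO libraries, against 27.2, 30.6, 32.2 and 27.5 CPM in the P2WT libraries. The 95% interval of its log2 change was -0.17 to 0.20, narrower than that of any other factor in the P2 line. Runx1 measured 82.9, 88.6, 104 and 84.9 CPM in the P2KO libraries, against 92.6, 93.9, 78.3 and 91.2 CPM in the P2WT libraries. Its interval was -0.18 to 0.24, around a change of 0.031. Myb measured 146, 162, 135 and 172 CPM in the P2KO libraries, against 129, 172, 156 and 143 CPM in the P2WT libraries. For Myb the interval was -0.19 to 0.28.

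**Figure D2:**
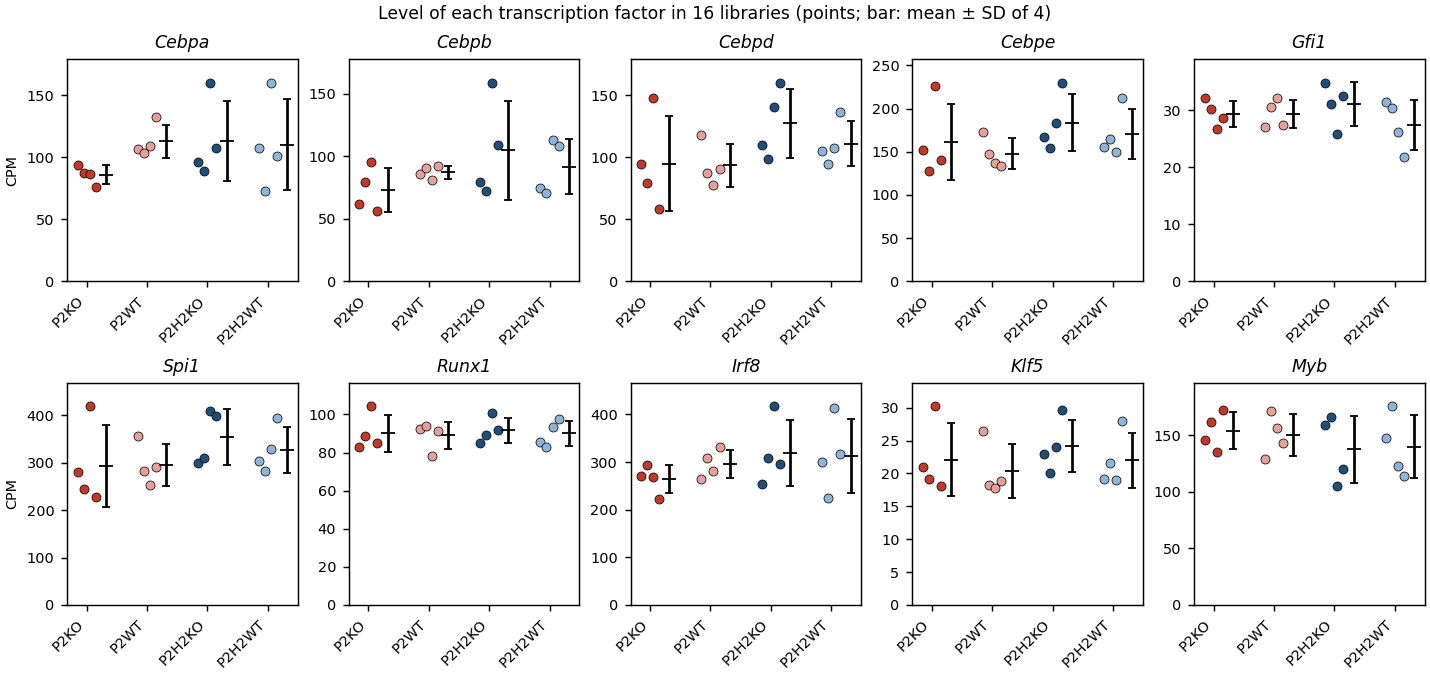
CPM of each factor in the 16 libraries, 1 panel per gene with its own axis from 0, points for libraries, bars for the mean ± SD of 4. The P2KO and P2WT points of Cebpa do not overlap, at 76.3 to 94.1 and 104 to 133 CPM, while in the P2H2 line all 10 factors overlap.

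In the P2H2 line, with P2H2KO labelled as lacking both PHD2 and HIF2α, 0 of 10 factors passed the adjusted threshold, against 0.0744% of 13435 genes. None had an unadjusted edgeR p under 0.05, against 2.63% of all genes, none of the 10 had groups without overlap, against 1.71% of all genes, and DESeq2 called 0. Changes ran from -0.026 (Myb) to 0.20 (Cebpd) on the log2 scale. Values above 0 were found for 9 of 10 factors, with a median of 0.11 beside 0.0011 for all genes tested. In the same libraries all 14 B cell genes and all 10 erythroid genes tested had values below 0, and all 11 dendritic genes had values above 0, with 0 called in each list. The B cell genes summed to 279 to 731 CPM in P2H2KO and 440 to 904 CPM in P2H2WT, the erythroid genes to 21642 to 41279 and 31066 to 43485 CPM, and their part in the values of the factors was not tested. Of the 16 monocyte and macrophage genes, 11 were below 0 here, 7 with an unadjusted edgeR p under 0.05, and 5 were above 0, with 0 called. Siglec1, C1qc and Mrc1 were at -0.71, -0.51 and -0.44. The means of Ccr2 and Csf1r were higher in P2H2KO, at 560 and 394 CPM, than in P2H2WT, at 518 and 361 CPM, with overlapping libraries. The list thus did not move as 1 set in this line. Its scores overlapped, at 6.95 to 7.45 in P2H2KO and 7.21 to 7.59 in P2H2WT.

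Cebpa measured 96.6, 88.7, 160.0 and 107 CPM in the P2H2KO libraries, against 108, 73.0, 160.1 and 101 CPM in the P2H2WT libraries. Its highest P2H2KO and P2H2WT libraries were level, the means were 113 ± 32.2 CPM and 110.4 ± 36.4 CPM (SD, n = 4), and the log2 change was 0.034 (95% interval -0.53 to 0.60). Cebpb measured 79.2, 72.1, 159 and 109 CPM in the P2H2KO libraries, against 75.0, 70.4, 113 and 109 CPM in the P2H2WT libraries. P2H2KO replicate 15 was the highest of the line, and without it the log2 change of Cebpb went from 0.19 to -0.079. Irf8 measured 253, 309, 417 and 297 CPM in the P2H2KO libraries, against 301, 224, 413 and 316 CPM in the P2H2WT libraries. As for Cebpa, 1 library of each group lay near the top, and these were the same libraries, P2H2KO replicate 15 and P2H2WT replicate 16. Both have titles ending in f, a suffix shared in this line only by P2H2KO replicate 17. In the P2 line the suffix f was on P2KO replicate 9 and P2WT replicates 7 and 10. With the suffix as a covariate the P2H2 log2 changes were -0.11 for Cebpa, -0.016 for Cebpb and -0.073 for Irf8.

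Spi1 measured 299, 309, 410.3 and 399 CPM in the P2H2KO libraries, against 304, 282, 328 and 395 CPM in the P2H2WT libraries. Both groups covered much the same range, and the log2 change was 0.12 (95% interval -0.20 to 0.43). Cebpd measured 110.0, 99.0, 140.4 and 160.1 CPM in the P2H2KO libraries, against 105, 94.3, 108 and 137 CPM in the P2H2WT libraries. The log2 change of 0.20 (95% interval -0.17 to 0.57) was the largest of the 10 in this line, and its interval held 0 (unadjusted edgeR p 0.252). Cebpe measured 168, 155, 183 and 229.7 CPM in the P2H2KO libraries, against 156, 164, 149.9 and 213 CPM in the P2H2WT libraries. In both groups the library with the highest Cebpe, replicates 17 and 18, also had the highest Klf5, which ran from 20.1 to 29.6 CPM in P2H2KO and from 19.1 to 28.0 CPM in P2H2WT.

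Myb measured 159, 166, 105 and 119.7 CPM in the P2H2KO libraries, against 147, 175, 123 and 114 CPM in the P2H2WT libraries. Each group held libraries at both ends of the range. Gfi1 measured 34.8, 31.2, 25.9 and 32.6 CPM in the P2H2KO libraries, against 31.5, 30.4, 26.2 and 21.8 CPM in the P2H2WT libraries. The log2 change of Gfi1 was 0.18 (95% interval -0.13 to 0.48, unadjusted edgeR p 0.220). Runx1 varied least, from 83.1 to 101 CPM over the 8 libraries, with a log2 change of 0.027 (95% interval -0.15 to 0.20).

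**Figure D3:**
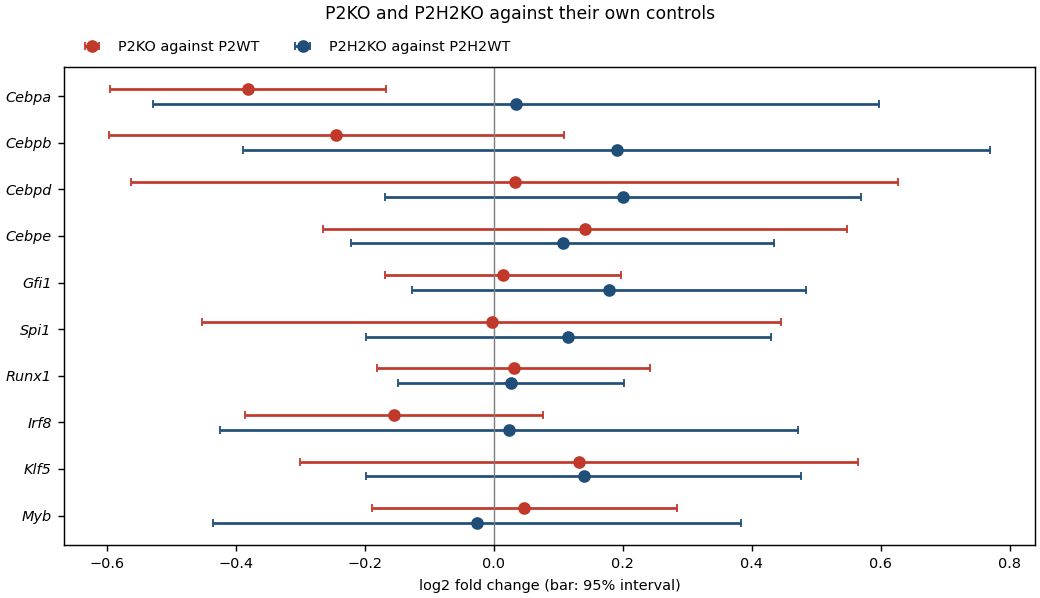
Log2 fold change of each factor in P2KO and in P2H2KO against its own control, with 95% intervals, for the P2 line and the P2H2 line. The interval of Cebpa in the P2 line, -0.60 to -0.17, is the only 1 of the 20 that does not hold 0, and it does not allow for the number of genes tested.

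The changes in the 2 lines were compared by the difference of the 2 effects in a fit of all 16 libraries. No group lacked HIF2α alone. Dependence of the PHD2 response on HIF2α thus cannot be told apart from an effect of HIF2α loss itself. By edgeR's quasi-likelihood test 0 of 10 factors passed the adjusted threshold, against 0% of 14080 genes, and 0 of 10 had an unadjusted p under 0.05, against 1.51% of all genes. DESeq2 called 0 of the 10 factors as well. For Cebpa the difference was -0.43 (SE 0.29, 95% interval -1.05 to 0.19, unadjusted edgeR p 0.161), and for Cebpb -0.45 (95% interval -1.15 to 0.25). The Cebpa changes of the lines, -0.38 and 0.034, were therefore not shown to differ. Without P2H2WT replicate 16 the Cebpa difference was -0.66 (unadjusted edgeR p 0.0181, adjusted 0.976), without P2H2KO replicate 15 -0.21, and without P2H2WT replicate 14 -0.27. Runx1 and Gfi1 had the tightest intervals of the difference, -0.27 to 0.25 and -0.52 to 0.17. Averaged over both lines, 0 of 10 factors were called against 0.17% of 14080 genes, with mean changes between -0.18 and 0.13. None of the 10 had an unadjusted edgeR p under 0.05 there, against 3.72% of genes. Between the control groups, P2WT against P2H2WT, 0 of 10 were called against 0.227% of genes, with changes between -0.25 and 0.10. Again none had an unadjusted edgeR p under 0.05, against 10% of genes, and DESeq2 called 0 factors in both of these comparisons.

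Related genes were examined alongside. There were 56 other transcription factors of blood cells, 20 partners and cofactors and 19 cytokine receptors and signalling genes. Of these, edgeR called 0 in each of the 5 comparisons. Per list and comparison 0 to 3 had an unadjusted edgeR p under 0.05, beside 1.51% to 10% of all genes tested. In the P2 line 1 of the 56 and 1 of the 19 had an unadjusted edgeR p under 0.05, beside 3.49% of all genes tested. Single genes in lists of this size are near that share. The 1 of the 56 was Irf5, an interferon regulatory factor of macrophages (log2 fold change -0.31, unadjusted edgeR p 0.0145). It had 90.6 ± 10.4 CPM in the P2KO libraries and 113 ± 11.4 CPM in the P2WT ones (SD, n = 4). Csf1r, the receptor of the monocyte growth factor M-CSF, was the 1 of 19 receptor and signalling genes, at -0.27 (unadjusted edgeR p 0.0382). Csf1r also belongs to the monocyte and macrophage genes already counted above. Over the lists described here the 1 gene called was Siglec1, a receptor of tissue macrophages, in the mean over both lines (-0.65, adjusted edgeR p 0.0259). Its mean level fell from 69.3 CPM in the P2WT libraries to 45.7 CPM in P2KO, and from 54.9 CPM in the P2H2WT libraries to 33.7 CPM in P2H2KO. The call was lost, with adjusted edgeR p of 0.0514 to 0.0741, without any 1 of P2KO replicates 5 and 6, P2WT replicates 4, 7 and 10, P2H2KO replicate 12 and P2H2WT replicates 14, 16 and 18. Markers of the other cell types were tested in the same way. Of 11 T and NK cell genes, 10 had values below 0 in the P2 line and 8 in the P2H2 line. Of 11 dendritic genes, 10 were below 0 in the P2 line and 0 in the P2H2 line, and of 9 progenitor genes 6 and 4. Of 8 eosinophil, basophil and mast cell genes 5 and 7 were below 0, and of 7 endothelial genes 2 and 2, with 0 called by edgeR in each of these 5 lists in all 5 comparisons. At an unadjusted edgeR p under 0.05 there were 0 to 5 genes per list and comparison. The lists with 5 were T and NK cell genes in the mean effect, beside 3.72% of all genes, and endothelial genes in P2WT against P2H2WT, beside 10%. All 7 endothelial genes were higher in P2WT than in P2H2WT, with a median log2 change of 1.03.

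Granule genes, which several of the factors are known to control, were also compared. The 14 secondary granule genes, which include Ltf, Camp and Ngp, had a median log2 change of -0.010 in the P2 line and 0.15 in the P2H2 line, with 0 called in either. The 7 primary granule genes tested, led by Mpo, had medians of -0.091 and 0.19, also with 0 called. The 14 cell-cycle genes were all above 0 in the P2 line, as were all 10 erythroid genes, beside 57.8% of all genes tested. In the P2H2 line 1 of the 14 cell-cycle genes was above 0, with 0 called in either line. Genes of a list can move together from library to library, so a shared sign does not count as separate results. The 13 genes of mature neutrophils had medians of -0.010 and 0.18, with 0 called. In the P2H2 line 13 of 13 mature genes and 14 of 14 secondary granule genes had values above 0, beside 9 of 10 factors and 50.5% of all genes tested, and none of these passed the test.

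Some pairs of factors varied together from library to library. Across the 8 libraries of a line, Pearson's r and Spearman's rho were computed with exact two-sided permutation tests over all pairings for 45 pairs of factors in each line, and the p were adjusted over the 90. By Pearson's r, 8 of 45 pairs passed in the P2 line, 2 of them with a negative r, and 12 of 45 in the P2H2 line, 3 of them negative, and 4 passed in both lines with the same sign. By rho, 0 and 1 also passed. The libraries of a line pool both genotypes, and all values share the library's scaling and cell content. Pairs of other genes were not counted in this way, so these counts do not set the factors apart from other genes.

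Cebpd, Cebpe, Spi1 and Klf5 formed the closest group. Cebpd and Spi1 had r = 0.97 in the P2 line (rho 0.90, exact permutation p of r adjusted 0.0100) and 0.94 in the P2H2 line (rho 0.81, adjusted 0.0289). Without the 2 libraries farthest from the median of Spi1, r of this pair was 0.91 and 0.92. Cebpe and Klf5 had r = 0.93 in the P2 line (rho 0.62) and 0.98 in the P2H2 line (rho 0.98). Without the 2 libraries farthest from the median of Klf5, r of Cebpe and Klf5 fell to 0.37 in the P2 line and was 0.95 in the P2H2 line. In the P2 line the pairs of Cebpe with Spi1 and of Klf5 with Spi1 likewise fell, from 0.90 and 0.92 to 0.38 and 0.40. The libraries dropped there were those farthest from the median of Spi1 and of Klf5, respectively. Leaving out the ends of 1 gene's range can lower r by itself. A fall therefore does not show that a relation rested on those libraries.

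Cebpa and Irf8 formed another pair, with r = 0.78 in the P2 line (exact permutation p adjusted 0.0757, not past the threshold) and 0.93 in the P2H2 line (rho 0.71, adjusted 0.0289). Without the 2 libraries farthest from the median of Irf8 these were 0.10 and 0.83. Cebpb joined them in the P2H2 line, with r = 0.82 to Cebpa, and was also close to Runx1 there at 0.92. Cebpa and Cebpe, which act early and late on the same path, were only weakly related, with r = -0.23 and -0.02.

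Myb had a negative r with 8 of the other 9 factors in both lines. Those that passed were Cebpd and Klf5 in the P2 line and Cebpb, Spi1 and Runx1 in the P2H2 line. Myb and Spi1 had r = -0.81 in the P2 line (exact permutation p adjusted 0.0539) and -0.93 in the P2H2 line (adjusted 0.0268). Myb and Cebpb had r = -0.40 and -0.95. The late factor Cebpe had -0.63 and -0.58 to Myb, neither past the threshold, and Runx1, like Myb a progenitor factor, had -0.40 and -0.93 (adjusted exact permutation p 0.458 and 0.0281). Of the other 9 factors only Gfi1 had a positive r with Myb in both lines, 0.54 and 0.66, neither past the threshold.

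**Figure D4:**
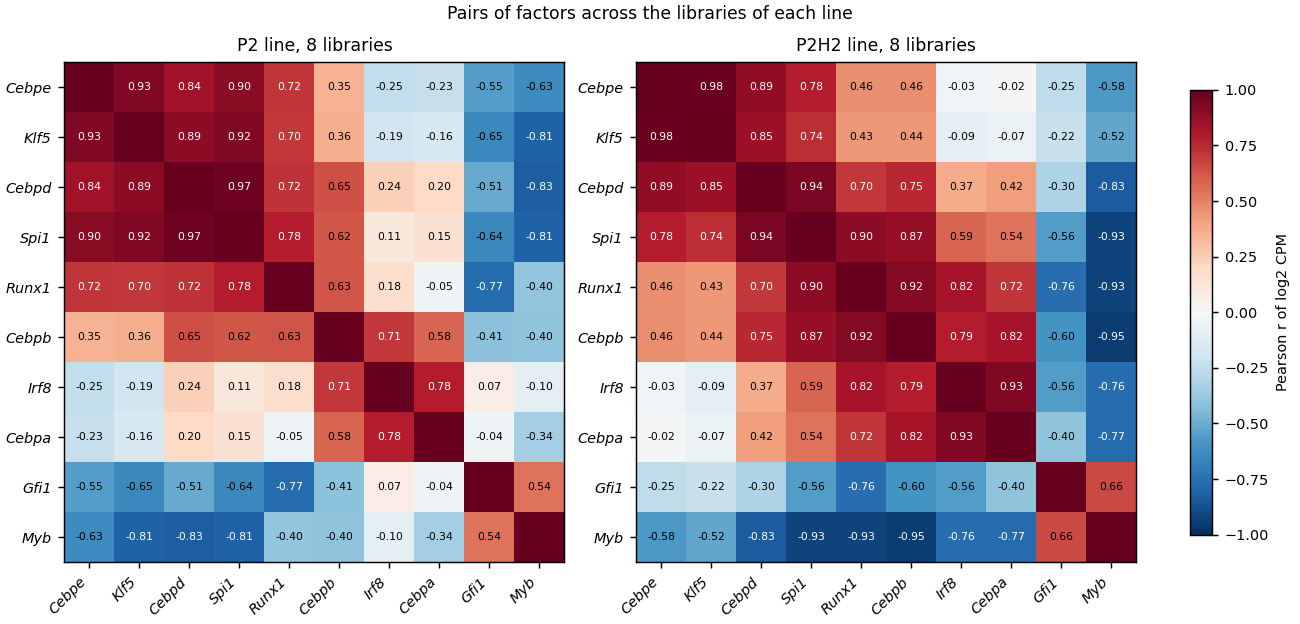
Pearson r of log2 CPM for each pair of factors over the 8 libraries of the P2 line (left) and of the P2H2 line (right). Cebpe, Klf5, Cebpd and Spi1 form a block of high r in both lines, between 0.74 and 0.98, and Myb is negative to all but Gfi1.

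The factors were then set against marker scores. For 5 scores and 10 factors in each line there were 100 relations in all. By Pearson's r, 10 passed an adjusted exact permutation p of 0.05 in each line, 7 of them in both. By rho, 1 passed in the P2 line and 0 in the P2H2 line. That 1 was Cebpa with the monocyte and macrophage score, where both measures separate the genotypes, and no granule relation passed by rho. The share of all genes that would pass with these scores was not computed. The counts and the r below therefore do not set the factors apart from other genes. Cebpd followed the secondary granule score with r = 0.95 in the P2 line (rho 0.93, adjusted exact p 0.00703) and 0.98 in the P2H2 line (rho 0.86, adjusted 0.00744). Without the 2 libraries farthest from the median score it was 0.84 and 0.96. Spi1 followed the same score with 0.97 and 0.92, and without those libraries with 0.86 and 0.89. Cebpe, the factor known to drive secondary granule genes, had r = 0.90 and 0.91, and 0.53 and 0.70 without them. Klf5 had r = 0.91 and 0.85, and 0.35 and 0.50 without them. Cebpa had only 0.17 and 0.37 to this score.

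The primary granule score, of genes made at the promyelocyte stage, was compared next. Its r was 0.78 and 0.75 to Irf8, and 0.71 and 0.83 to Cebpa, in the P2 and the P2H2 line. None of these 4 passed, with adjusted exact permutation p of 0.0762, 0.0923, 0.136 and 0.0629. Without the 2 farthest libraries, r fell to 0.27 and 0.43 for Irf8, and to 0.069 and 0.63 for Cebpa. Cebpe had -0.49 and -0.07 to it. To the monocyte and macrophage score Cebpa had r = 0.65 in the P2H2 line. In the P2 line both measures separate the genotypes, so no pooled r is given and groups of 4 are too small to test it, although this relation is 1 of the 10 counted there.

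Scores of other cells and of proliferation moved with the factors too. To the B cell score, Myb had r = 0.71 in the P2 line and 0.87 in the P2H2 line (adjusted exact permutation p 0.136 and 0.0202). Cebpb had -0.20 and -0.93 to it. The cell-cycle and erythroid scores were added after seeing the data and adjusted in a family of 40. To the cell-cycle score, Spi1 had r = -0.92 and -0.92 (rho -0.98 and -0.95, adjusted exact permutation p of r 0.00298 and 0.00372). Spi1 had -0.89 and -0.88 to the erythroid score, and Runx1 -0.86 and -0.93. Myb and Gfi1 were positive to both scores in both lines, Myb reaching 0.94 with the cell-cycle score in the P2H2 line and Gfi1 0.81 with the erythroid score in the P2 line. The part of these other cells in the relations among the factors was not tested.

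**Figure D5:**
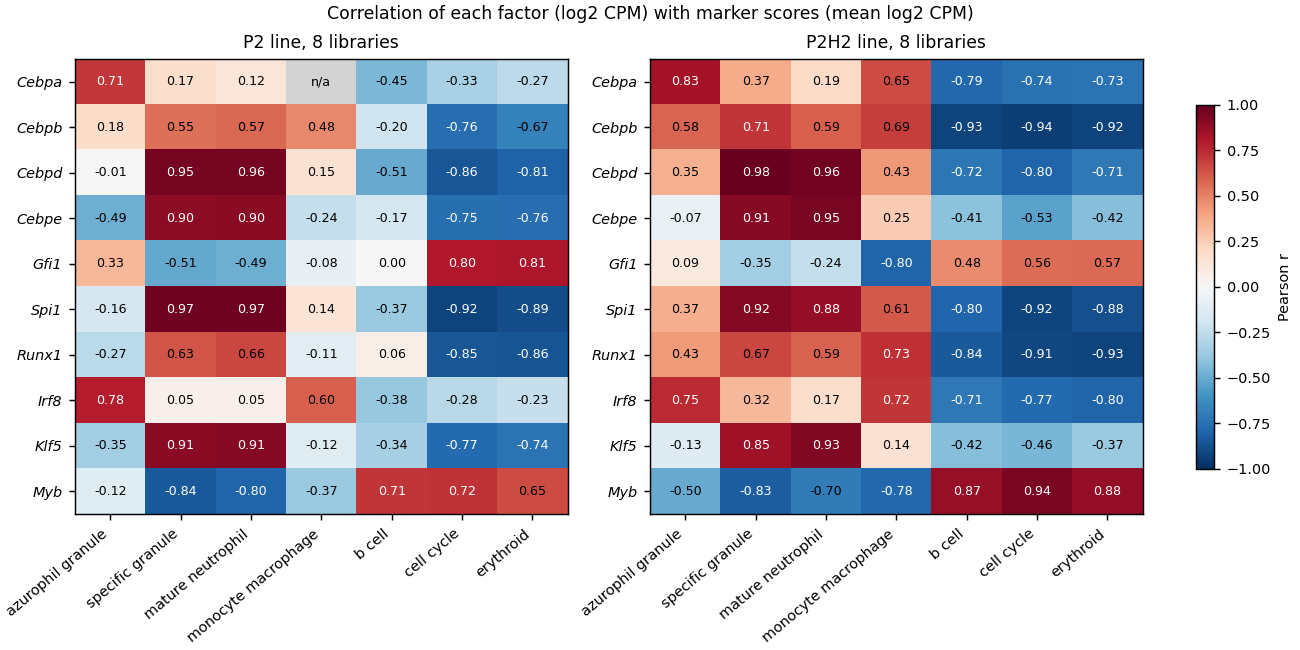
Pearson r of each factor's log2 CPM with 7 marker scores over the 8 libraries of each line, with grey for the pair in which both measures separate the genotypes. Cebpd, Cebpe, Spi1 and Klf5 are at 0.85 or more to the secondary granule score in both lines, and Myb and Gfi1 have the opposite sign.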

How the data were processed

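Reads were counted per gene by the authors with HTSeq against mm10, per the submitters' processing notes. Its version, strand setting and gene annotation are not given in the sources used here. The deposited values are whole-number raw counts, not normalized, 1 table per line. From these counts, edgeR 4.0.16 (R 4.3.3) was run with filterByExpr, TMM, estimateDisp, glmQLFit (robust) and glmQLFTest, two-sided, with Benjamini-Hochberg adjustment over all genes tested and a threshold of 0.05. Each line was fitted on its 8 libraries, and the difference, the mean effect and the control comparison on all 16. Standard errors came from the F statistic. Log2 CPM used a prior count of 2, and a score is the mean log2 CPM of a list. Correlations used all pairings of 8 libraries (numpy 2.4.6, scipy 1.17.1). Symbols matched 49326 of 49585 identifiers, and coordinates are those of GENCODE M21 on GRCm38. The members and the lists were chosen with earlier results of these data known. All 10 members were named, and from each list the genes with an adjusted p under 0.05, or otherwise up to 3 with the smallest unadjusted p under 0.05. Some of the latter are given by count only. Nothing in the labels ties a library to an animal, so p-values measure the spread between these libraries. Alternatives were other size factors (RLE, upper quartile), DESeq2 1.42.0, testing without a filter or with a floor of 10 counts per library, the m or f suffix of the library titles as a covariate, all 16 libraries in 1 fit, each library left out, and 2 scores as covariates. In simulated counts for P2KO against P2WT (13605 genes), 36% of the 50 genes set to change by 0.5 (log2) were called, and 86% of the 50 set to 1. In those for P2H2KO against P2H2WT (13315 genes) it was 32% and 88%. Each simulation set 50 genes to each of 0.5, 1, 1.5 and 2, chosen among genes with ample counts, and drew all genes independently. In the data only 6 and 10 genes passed, so the adjusted threshold was harder to reach there. The simulated shares may therefore be too high for the factors.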

Additional observations from a re-analysis of the deposited data

Results flagged for a closer look

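In the 40 sets of 4 libraries (10 factors, 4 groups), 2 held a library far from its group by Dixon's test at the 95% level, which chance gives in about 1 of 20 sets. Klf5 was at 26.4 CPM in P2WT replicate 10, with the other 3 libraries at 17.7 to 18.9 CPM. Runx1 was at 78.3 CPM in P2WT replicate 4, with the other 3 at 91.2 to 93.9 CPM.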

How the results depend on the processing

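Under the other size factors, filters and tools, the title suffix and the joint fit, 0 factors were called in all 5 comparisons, and leaving out any 1 library also gave 0. The 7 lists of factors, partners, receptors and signals, granules, mature neutrophils and cell cycle had 0 called genes in all 5 comparisons under these settings too. No paired analysis was possible because the groups share no replicate number. Of the correlations with marker scores, 20 of 100 passed with 8 libraries and 0 without the 2 farthest libraries. With 6 libraries fewer pairings exist, which limits the p that can be reached. Of the covariates chosen after seeing the data, the monocyte and macrophage score gave 2 called factors in the P2H2 line, Cebpb (0.55, adjusted edgeR p 0.0303) and Spi1 (0.30, adjusted 0.0462), 24 called genes of those 7 lists there and 3 in the mean effect. That fit called 1256 of all 13435 genes tested in the P2H2 line, against 10 without the score, and 53 of 14080 in the mean effect, against 24. Siglec1 in the mean effect was then at -0.43 (adjusted edgeR p 0.128). Siglec1 is itself 1 of the genes in that score, so part of its shift can be built in. The mature neutrophil score gave 0 called factors, with Cebpb at -0.019 and Spi1 at -0.030 in the P2H2 line. The cause was not tested. Of 200 single-factor values under the settings other than these scores and the removal of a library, 11 changed sign, as did 25 of 60 under the scores. None of those that changed sign passed the threshold under either fit. With the monocyte score the log2 changes that turned were Cebpa 0.040, Cebpe -0.030, Gfi1 -0.056, Spi1 0.11, Runx1 -0.038, Irf8 0.027 and Myb -0.34 for the P2 line, and Runx1 0.042, Klf5 0.052 and Myb -0.10 for the difference of the effects. With the mature neutrophil score they were Spi1 0.031 for the P2 line, Cebpa -0.0085, Cebpb -0.019, Cebpd -0.0080, Cebpe -0.063, Spi1 -0.030, Runx1 -0.015, Irf8 -0.0054, Klf5 -0.026 and Myb 0.14 for the P2H2 line, and Cebpd 0.023, Spi1 0.027, Runx1 0.046, Klf5 0.16 and Myb -0.047 for the difference of the effects. With the title suffix as a covariate they were Cebpd -0.025 and Gfi1 -0.016 for the P2 line, Cebpa -0.11, Cebpb -0.016, Runx1 -0.0024, Irf8 -0.073 and Myb 0.054 for the P2H2 line, and Runx1 0.025, Klf5 0.022 and Myb -0.021 for the difference of the effects. With no filter it was Runx1 0.0031 for the difference of the effects. Leaving out 1 library turned the sign of 17 results, whose log2 values ranged as follows: Gfi1 -0.031 to 0.063, Spi1 -0.23 to 0.10, Cebpd -0.27 to 0.20, Cebpe -0.066 to 0.24, Runx1 -0.046 to 0.067, Klf5 -0.055 to 0.29 and Myb -0.016 to 0.12 for the P2 line, Cebpa -0.18 to 0.27, Cebpb -0.079 to 0.34, Runx1 -0.018 to 0.064, Irf8 -0.13 to 0.19, Myb -0.13 to 0.096 and Cebpe -0.016 to 0.23 for the P2H2 line, and Runx1 -0.085 to 0.040, Klf5 -0.20 to 0.14, Cebpe -0.18 to 0.14 and Myb -0.063 to 0.15 for the difference of the effects. Each factor had 438 or more reads per library. How far depth or the spread between libraries set the width of the intervals was not tested.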

Other observations

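The genes whose pattern was most like each factor were sought among 9492 genes with a mean of at least 5 CPM, by Pearson r of log2 CPM after subtraction of the group means over 16 libraries, as a description. Spi1 was matched most closely, by Litaf (r = 0.995), Rgs19 (0.994) and Grb2 (0.992), the last an adaptor of receptor signalling. Cebpd was matched by Hk3 (0.985), the hexokinase of myeloid cells, Hsd11b1 (0.984) and Mcemp1 (0.982). Cebpe was matched by Mfn2 (0.978), a mitochondrial fusion protein, Ppp1r2 (0.976) and Adpgk (0.970), and Klf5 by Stap1 (0.961), Max (0.959) and Cptp (0.955). Cebpa was matched by Rassf8 (0.975), Prdx4 (0.974) and Dr1 (0.965). Irf8 was matched by Erp29 (0.962), Tmem109 (0.956) and Tep1 (0.954), and Erp29 and Prdx4 both encode proteins of the endoplasmic reticulum. Myb was matched by Kctd3 (0.970), Hnrnph1 (0.968) and Tcf3 (0.966), Runx1 by Ccnj (0.943), Madd (0.939) and Nfkb1 (0.934), Cebpb by Zfp467 (0.945), Mvd (0.942) and Zfp36l2 (0.941), and Gfi1 by Clpx (0.922), Tceal9 (0.922) and Ngrn (0.917).

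Among the promoter windows not printed, 1 of the Runx1 windows held ACGTG on both strands as the overlapping letters CACGTG, and its other window held 1 ACGTG and 1 GAGGAA match. The Myb window held 1 TTGCG match, and the 2 Gfi1 windows and the further Irf8 window held none.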
